A study of Drosophila melanogaster with 4 samples.

Results

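The regions described here are the promoter-proximal binding regions of Gug, those whose position lay 201 to 1000 bp from the nearest start site of a protein-coding gene. No signal value entered the choice directly, but the authors had already thresholded the lists and each region had to recur between replicates. The peak summits of 4 replicate lists were joined within 200 bp, a joined region had to hold a peak in at least 2 of the lists, and its position was the median of its summits. Regions within 500 bp of the midpoint of a divergent gene pair (start sites of opposite strand within 500 bp) were set aside. Of 2643 reproducible regions 559 met the rule, which is 21.2%. Of these, 398 (71.2%) lay upstream of the start site on the strand of its gene and 161 (28.8%) lay downstream. The other regions were 626 at single promoters (within 200 bp of a start site), 449 at divergent promoters and 1009 distal ones.

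The study was a chromatin immunoprecipitation with sequencing (ChIP-seq) of whole Drosophila melanogaster embryos aged 0 to 24 h, in 4 biological replicates of 1 group. Per the labels, the strain was Gug-GFP, the transgenic flies expressed a Gug-eGFP fusion protein, and the chromatin was pulled down through its GFP tag. All 4 replicates shared this transgene, and neither a control library nor untagged embryos were among the samples used. A whole embryo mixes every tissue and every stage of that window, so the regions cannot be assigned to a cell type.

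Gug, also called Grunge or Atrophin, is a transcriptional co-repressor that is brought to DNA by partners such as the nuclear receptor Tailless. Start sites are flanked by DNA that holds regulatory sequence of its own, upstream of the first transcribed base and, in flies, often in the first introns. Genes with several alternative promoters carry such DNA inside their own span.

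To show what these regions look like, the DNA around 5 of the strongest of them is given on the strand of the gene, 5′ to 3′, 151 bases centred on the position of the region (dm6 build, RefSeq genome sequence). The ph-p and LPCAT regions led the printed regions of their side. The Lk6, Rtnl1 and CG9663 regions hold the word CACTG or its reverse complement CAGTG, a word described further on, which is in capitals wherever it occurs.
ph-p upstream region, chrX:2137292-2137442, minus strand: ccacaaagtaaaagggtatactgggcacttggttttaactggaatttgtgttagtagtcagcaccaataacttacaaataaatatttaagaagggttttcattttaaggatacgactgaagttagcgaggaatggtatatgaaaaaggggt
Lk6 upstream region, chr3R:11760967-11761117, minus strand: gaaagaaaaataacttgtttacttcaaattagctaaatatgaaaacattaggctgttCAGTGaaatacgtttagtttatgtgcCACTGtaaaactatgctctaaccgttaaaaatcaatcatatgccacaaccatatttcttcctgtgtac
Rtnl1 upstream region, chr2L:4997545-4997695, minus strand: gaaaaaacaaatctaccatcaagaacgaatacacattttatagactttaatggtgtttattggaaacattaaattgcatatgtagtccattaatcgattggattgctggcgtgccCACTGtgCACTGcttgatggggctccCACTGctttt
LPCAT downstream region, chrX:9579227-9579377, minus strand: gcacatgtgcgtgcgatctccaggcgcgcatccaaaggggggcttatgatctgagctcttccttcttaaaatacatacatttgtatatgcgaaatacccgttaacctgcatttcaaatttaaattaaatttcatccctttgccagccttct
CG9663 downstream region, chr2L:3302175-3302325, minus strand: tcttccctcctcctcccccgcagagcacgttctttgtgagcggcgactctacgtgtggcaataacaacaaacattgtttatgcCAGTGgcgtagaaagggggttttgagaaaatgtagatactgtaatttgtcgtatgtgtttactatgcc
The word occurred 3 times in the Rtnl1 stretch, 2 times in that of Lk6, once in that of CG9663 and in neither of the other stretches. Stretches of larp and mub, taken in the same way but not printed, held 0, and that of CG17896 held 1. The printed stretches are therefore no measure of how often the regions hold the word. A TATAAA box was found once, in the Rtnl1 stretch, and GAGAG in none of the printed stretches.

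The regions were dense close to the start site on its upstream side and sparse on its downstream side. Bases that met the distance rule made up 14.4% of the main chromosome arms, and 42.0% of those bases lay upstream. Upstream regions numbered 48.0 per Mb of such sequence against 19.2 reproducible regions per Mb of the arms as a whole, a ratio of 2.50. Downstream regions numbered 14.1 per Mb, a ratio of 0.731. When the peaks of each list were placed by their own summits, 71.5%, 71.4%, 70.7% and 73.5% of the promoter-proximal peaks of replicates 1 to 4 lay upstream (mean 71.8% ± 1.20, SD, n = 4). The upstream ratio was 2.50, 2.38, 2.50 and 2.63 (mean 2.50 ± 0.104, SD, n = 4). The downstream ratio was 0.721, 0.688, 0.749 and 0.686 (mean 0.711 ± 0.0298, SD, n = 4). In every replicate the upstream side was above and the downstream side below the average of the arms. With only the outermost start site of each gene counted, 57.2% of 439 regions lay upstream and the downstream ratio was 1.03, no longer below 1.

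On the upstream side the density fell with distance, down to the average of the arms. The ratio was 4.95 ± 0.277 (SD, n = 4 lists) at 201 to 300 bp and 3.71 ± 0.545 in the next 100 bp. It lay between 2.16 and 2.36 from 401 to 700 bp, and was 1.33 ± 0.182, 0.787 ± 0.306 and 1.00 ± 0.150 in the last 3 bins of 100 bp. On the downstream side it was lowest next to the start site, 0.300 ± 0.0592 at 201 to 300 bp, and 1.00 ± 0.151 at 901 to 1000 bp. The joined regions had a median distance of 388.5 bp upstream and 647 bp downstream.

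**Figure D1:**
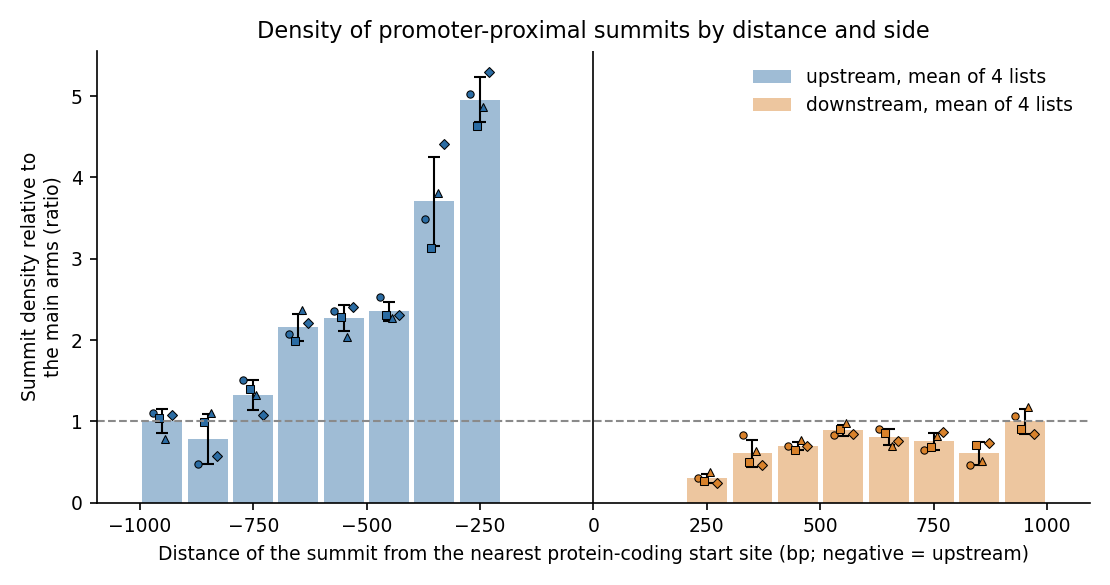
Density of promoter-proximal summits in bins of 100 bp, relative to the density over the main arms (ratio, dashed line at 1), against the distance from the nearest start site in bp. Bars are means of the 4 replicate lists, error bars the SD, and points the single lists; the upstream bars fall from 4.95 at 201 to 300 bp to about the average of the arms, and the downstream bars start at 0.300.

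The bounds cut through a continuous range of positions. Just inside the inner bound were regions 201 bp upstream of Kah, a zinc finger gene of the Snail family (mean signal percentile 89.9 ± 3.78, SD, n = 4 lists), and 207 bp downstream of Cerk, a ceramide kinase gene (65.8 ± 4.31). Just outside it were regions 199 bp upstream of T48 (30.2 ± 19.7, 2 lists) and 197 bp downstream of Sik3, a kinase gene (78.5 ± 15.5). At the outer bound, regions 989 bp upstream of chif (90.3 ± 4.56) and 992 bp downstream of Ncoa6 (46.6 ± 26.7, 3 lists) were inside. Regions 1017 bp upstream of ex, a Hippo pathway gene (28.5 ± 9.72), and 1002 bp downstream of C3G (63.0 ± 13.8) were outside.

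Most regions lay in introns or between genes, and almost none in coding sequence. Upstream, 203 regions (51.0%) lay in an intron against 29.5% of the upstream bases at these distances, and 182 (45.7%) were intergenic against 45.9%. Coding exons held 0 upstream regions against 13.2% of those bases. The 3' UTRs held 3 (0.754%) against 9.98%, and the 5' UTRs 10 (2.51%) against 1.46%. Downstream, 142 regions (88.2%) were intronic against 34.0% of the bases, and 14 (8.70%) lay in a 5' UTR against 10.7%. A 3' UTR held 1 downstream region (0.621%) against 4.33% of the bases, and coding exons held 4 (2.48%) against 48.3%. Placed by their own summits, the intronic share of upstream peaks lay between 49.2% in replicate 3 and 50.6% in replicate 4 (mean 49.9% ± 0.584, SD, n = 4). That of downstream peaks was 85.5%, 83.4%, 85.6% and 89.3% (mean 85.9% ± 2.44, SD, n = 4). The spread between replicates was far smaller than the gap to the share of bases on either side.

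**Figure D2:**
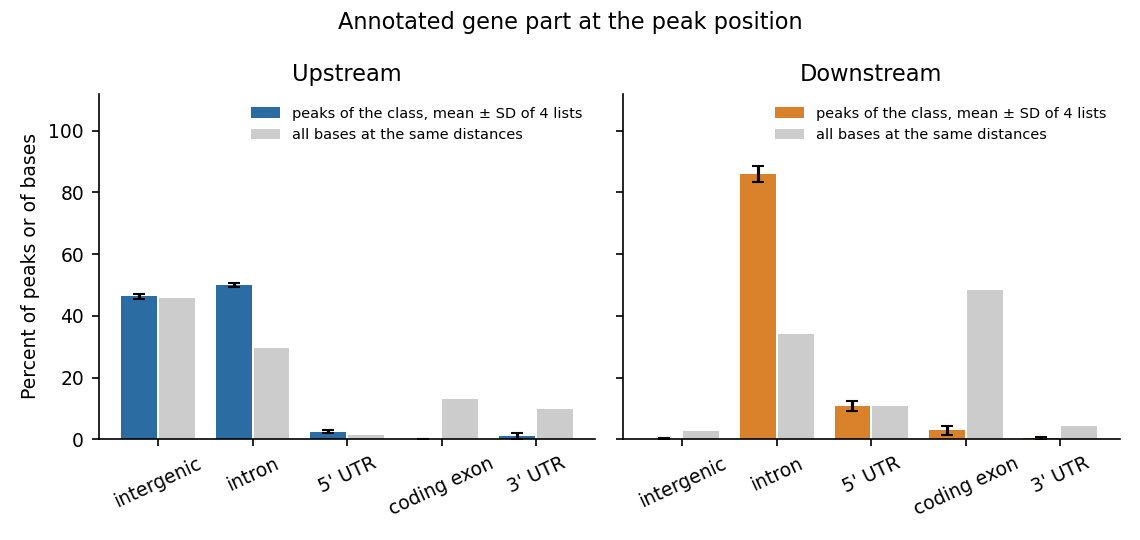
Percent of promoter-proximal peaks whose summit lay in each annotated gene part (coloured bars, mean and SD of 4 lists), beside the percent of all bases at the same distances (grey). Introns held 49.9% of upstream and 85.9% of downstream peaks, against 29.5% and 34.0% of the bases.

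Many regions called upstream were inside a gene. Of the 398 upstream regions, 176 (44.2%) lay within the span of the same gene, that is, upstream of an internal start site, against 20.9% of upstream bases. The gene had 2 or more annotated start sites for 375 of the 559 regions (67.1%), while genes with several start sites held 39.8% of the eligible bases. Among the 182 intergenic upstream regions, 93 (51.1%) lay in a gap between divergent genes against 43.9% of intergenic upstream bases, and 89 (48.9%) in a tandem gap against 55.9%. A start site of a second protein-coding gene lay within 1000 bp of 86 regions (15.4%), so that their assignment to 1 gene is uncertain. A start site of a non-coding gene lay within 200 bp of 11 regions (1.97%), against 1.58% of eligible bases. Another reproducible region lay within 1000 bp of 91 (16.3%), in 13.6% of upstream and 23.0% of downstream cases. For 68 regions (12.2%) the gene also held a region within 200 bp of a start site, where such genes held 5.95% of eligible bases. For the counts of 86 and 91 no share over eligible bases is given, so they cannot be called particular to this class.

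The regions were spread over the large arms, with a higher density on the X chromosome. The X chromosome held 119 of them, 35.1 per Mb of eligible sequence, and the large autosome arms held 438, 27.1 per Mb. The ratio of X to autosomes was 1.60, 1.33, 1.23 and 1.35 in the lists of replicates 1 to 4 (mean 1.38 ± 0.158, SD, n = 4). It was above 1 in each list and highest in replicate 1. The same ratio for all reproducible regions is not given here, so it cannot be called particular to this class. Chromosome 4 held 2 regions and Y held 0.

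Each list holds a signal value for every peak, the authors' own, which was turned into a percentile within that list. Values given after ± with a percentile are the SD over the 4 lists, or over fewer where so stated. Median percentiles of the promoter-proximal regions were 54.9, 63.7, 55.5 and 59.0 in replicates 1 to 4 (mean 58.2 ± 4.04, SD, n = 4). Single promoters had 56.5, 71.5, 56.2 and 57.8 (mean 60.5 ± 7.35), and distal regions 51.1, 57.2, 45.9 and 55.3 (mean 52.4 ± 5.02). Promoter-proximal regions were above distal ones in 4 of 4 replicates, by 5.86 ± 2.77 percentile points (SD, n = 4). The exact sign-flip permutation test gave p = 0.125, the smallest that 4 replicates allow (2-sided, adjusted p = 0.375 over 3 comparisons), so no difference could pass 0.05. Against single promoters the difference was -2.26 ± 3.89 points and positive in 1 of 4 replicates (exact permutation test, p = 0.375, adjusted p = 0.5625), smaller than its spread and set mostly by replicate 2 (-7.82 points). Upstream minus downstream regions came to -0.92 ± 2.25 points, with 2 of 4 replicates on each side of 0 (exact permutation test, p = 0.75, adjusted p = 0.75). The strongest 25% of each list held 30.4% ± 4.08 of its promoter-proximal regions and the weakest 25% held 18.3% ± 4.09 (SD, n = 4 lists). For all reproducible regions these shares were 30.4% ± 5.16 and 17.4% ± 4.77, and their median percentile was 57.7 ± 5.83 (SD, n = 4), so the 2 medians lay closer together than the replicates of either.

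**Figure D3:**
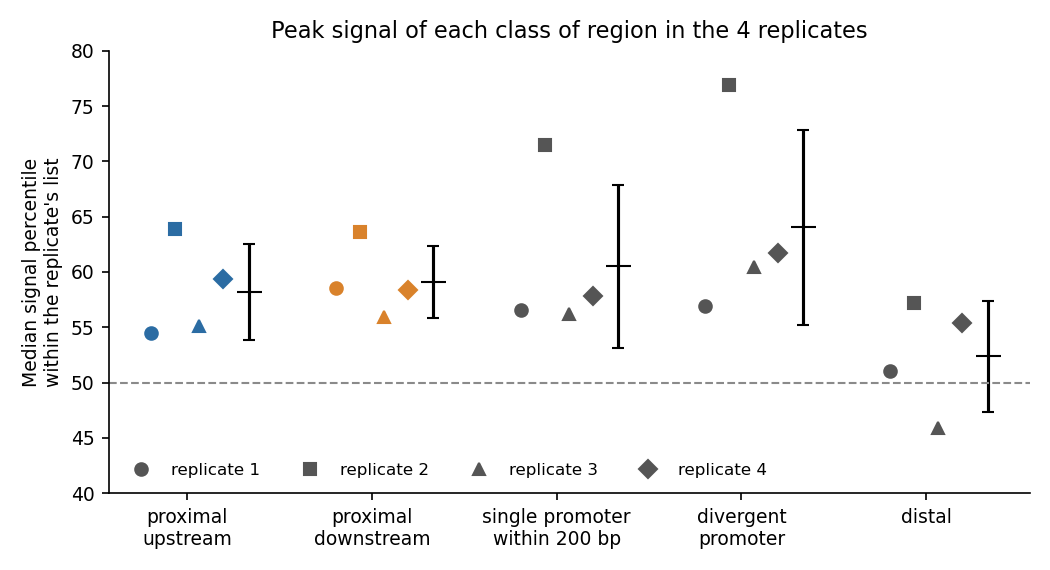
Median signal percentile within each replicate's list (y axis, 50 dashed) for upstream and downstream promoter-proximal regions, single promoters, divergent promoters and distal regions. Points are the 4 replicates and bars the mean and SD; replicate 2 is the highest in every class, and the 2 promoter-proximal groups overlap.

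The regions were recovered to different degrees by the 4 lists. Replicates 1 to 4 held 384, 529, 413 and 440 of the 559, in lists of 1948, 3786, 2117 and 2450 peaks. All 4 lists held 259 (46.3%), 3 lists 130 and 2 lists 170. The share in all 4 lists was 46.5% upstream and 46.0% downstream, 45.7% for single promoters, 50.1% for divergent promoters and 39.7% for distal regions. Of the 470 cases in which a region had no peak in a thresholded list, 425 (90.4%) had a peak within 200 bp in the longer ranked list of the same replicate. The ranked lists held 32752 to 49135 peaks. No share over eligible bases or other classes is given, so the 90.4% cannot be called particular to these regions. The summits of a region spread over a median of 33 bp, and the peaks were 294 bp wide at the median.

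The strongest upstream region lay at HmgZ, a gene for an HMG-box DNA-binding protein, 530 bp upstream of an internal start site and in an intron (2R, 21703086 to 21703675). Its signal was 540, 1088, 658 and 545 in replicates 1 to 4 and its percentile at least 99.7 in every list. Second was ph-p, which encodes the Polyhomeotic subunit of Polycomb repressive complex PRC1, with a region 512 bp upstream of an internal start site and in an intron (X, 2137195 to 2137528). Its signal was 583, 856, 468 and 654. A second ph-p region lay 487 bp away in a 5' UTR, 517 bp downstream of another start site (X, 2137715 to 2138043, mean percentile 94.2 ± 0.706). The neighbouring copy ph-d had a region 729 bp upstream in intergenic DNA (86.5 ± 7.43). The 2 genes are close copies, and how reads that match both were treated is not given in the sources used here.

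The other strong upstream regions belonged to genes of varied function. Sox14, a transcription factor gene of the ecdysone response, had one 280 bp upstream in a divergent intergenic gap (percentile 99.5, 99.8, 99.5 and 99.1). Lk6, which encodes a kinase of the Mnk type, had one 963 bp upstream of an internal start site, in an intron (99.1, 99.3, 99.2 and 99.3). The intronic region of Rtnl1, a reticulon gene of the endoplasmic reticulum, lay 239 bp upstream of an internal start site (97.5, 97.9, 97.2 and 98.5). Percentiles this close to the top in every list follow from how the regions were picked. The signals behind them varied between replicates, from 387 to 817 for Sox14, from 391 to 588 for Lk6 and from 264 to 388 for Rtnl1. CG1888 (208 bp upstream, 99.5 ± 0.129), mlt (734 bp, 98.2 ± 0.680), larp, a gene for a La-related RNA-binding protein (338 bp, 98.1 ± 0.952), and CG13501 (265 bp, 97.2 ± 1.48) were also among them. The list ended with CG17896 (471 bp, 97.0 ± 1.96), the T-box gene org-1 (324 bp, 96.5 ± 1.40) and the formin gene Fhos (252 bp, 95.8 ± 1.19). Of these 12 regions, 8 were intronic, 3 intergenic and 1 in a 5' UTR. Of all 398 upstream regions 51.0% were intronic, 45.7% intergenic and 2.51% in a 5' UTR. The mlt and CG13501 regions lay in an intron of another gene, not within their own span.

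Downstream, Adf1 led, a gene for a MADF-domain transcription factor, with an intronic region 753 bp into the gene (2R, 6662875 to 6663251). Its signal was 675, 996, 575 and 527, and its percentile 99.9, 99.9, 99.7 and 99.7. LPCAT, a lysophospholipid acyltransferase gene, had a region at 685 bp (98.3 ± 0.699), and CG9663 one at 880 bp (97.8 ± 1.35). That of mub, a KH-domain RNA-binding protein gene, lay at 892 bp (97.5 ± 1.34), that of Fem-1 at 737 bp (94.8 ± 2.25) and that of the receptor tyrosine phosphatase gene Ptp4E at 418 bp (93.8 ± 3.13). The ethanolamine kinase gene eas had one in a 5' UTR at 918 bp (93.4 ± 2.51). All 8 strongest downstream regions lay at least 418 bp from the start site, 6 of them in introns.

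In all, 517 of 13968 protein-coding genes (3.70%) were nearest to a promoter-proximal region, 370 on the upstream side, 160 on the downstream side and 13 on both. Of these, 37 genes held 2 or more regions and 4 held 3 or more, all 4 of them genes with several start sites. Rtnl1 had 4 (mean percentiles 97.8, 92.3, 70.5 and 26.7), each upstream of a different one of its 7 start sites. The cAMP phosphodiesterase gene dnc (93.8, 56.6 and 30.9), larp (98.1, 43.7 and 22.8) and Moe (30.9, 20.5 and 14.1), which encodes the membrane to actin linker Moesin, had 3 each. These means are over the 2 to 4 lists that held each region. In Rtnl1, dnc and larp strong and weak regions thus stood in the same gene.

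Of 346 gene symbols in 17 lists, 342 were matched. The count of each list stands beside 3.70% of all genes, and its density beside 28.3 regions per Mb of eligible sequence over all genes, since genes with many start sites offer more such sequence. Genes of the Notch pathway, by which neighbouring cells set each other's fate, led with 5 of 19 genes and 156 regions per Mb, all upstream. They were the co-activator genes nej (788 bp, 41.6 ± 12.9) and mam, the inhibitor numb (619 bp, 28.0 ± 35.1, 2 lists), the glycosyltransferase fng, and the target E(spl)m3-HLH (447 bp, 29.3 ± 29.4). For nej the percentiles were 35.9, 60.2, 30.8 and 39.7 in replicates 1 to 4. E(spl)m3-HLH had 10.7, 28.3, 7.04 and 71.2, low in replicates 1 and 3 and high in replicate 4.

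EGFR signalling, which drives growth and differentiation through Ras and MAP kinase, held 5 of 23 genes and 115 regions per Mb. They were the kinase gene Raf (789 bp downstream, in a 5' UTR, 51.0 ± 17.0), the Ets genes aop (965 bp upstream, 61.5 ± 0.258, 2 lists) and pnt (914 bp upstream, 44.1 ± 21.9, 3 lists), and the feedback inhibitors aos and sty. In the Dpp and dorsoventral list 4 of 21 genes held a region (74.1 per Mb), all upstream, among them the Smad gene Mad (676 bp, 76.2 ± 13.3), the repressor brk (890 bp, 60.2 ± 11.1) and the GATA cofactor ush (588 bp, 60.8 ± 17.0, 3 lists). For Mad the percentiles were 84.5, 70.3, 60.4 and 89.5. In the Hippo, Fat and planar polarity list 4 of 23 genes held a region (87.2 per Mb): the palmitoyltransferase gene app (211 bp upstream, 71.0 ± 11.7), the cadherin gene ds (604 bp upstream, 58.1 ± 30.2, 2 lists), the polarity gene crb (969 bp downstream, 53.2 ± 11.8) and mats.

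Insulin and TOR genes with a region were Sesn (67.1 ± 5.10), the insulin receptor gene InR (54.3 ± 27.4) and Pi3K92E (31.8 ± 20.3, 2 lists), 3 of 19 (78.6 per Mb). For nuclear receptors it was 3 of 21 (53.1 per Mb): usp, the partner of the ecdysone receptor (201 bp upstream, in a 5' UTR, 50.8 ± 35.3, 3 lists), Hnf4 (46.1 ± 1.67, 2 lists) and ERR (36.3 ± 21.7, 2 lists). The ecdysone response list held Eip63F-1 (41.7 ± 31.2) beside Sox14, 2 of 14 and 35.7 per Mb, close to all genes. The co-repressor list held Sin3A (39.2 ± 29.4) and CtBP (38.8 ± 33.3, 3 lists), 2 of 18 (70.6 per Mb). In the Polycomb and Trithorax list ph-p, ph-d and Trl, the GAGA factor gene (668 bp downstream, 25.7 ± 19.2, 2 lists), made 3 of 25, with 4 regions and 106 per Mb, below the Notch and EGFR lists and above the others.

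Among neural genes elav, which encodes a neuronal RNA-binding protein, had percentiles of 90.3, 96.2, 93.3 and 90.4 for its region 206 bp upstream, and brat 91.0, 92.3, 89.2 and 94.4 at 675 bp upstream. Both were intronic and stayed at 89.2 or above in every list. The third of the 23 neural genes with a region was numb, given above, which was held by 2 lists only, and the density of the list was 80.8 per Mb. The other lists were the cytoskeleton (3 of 24 and 85.0 per Mb, with Act5C at 79.9, 87.7, 50.6 and 76.0 in the 4 lists, dlg1 61.4 ± 25.9 over 3 lists and rhea 56.8 ± 18.9), muscle (2 of 20 and 38.8 per Mb, sls 67.1 ± 9.64 and rols 31.8 ± 7.36 over 3 lists), germline (1 of 16 and 30.0 per Mb, pum 32.9 ± 35.2 over 2 lists) and heat shock genes (1 of 18 and 37.6 per Mb, stv 67.6 ± 9.21 over 3 lists). Wnt and Hedgehog genes came to 1 of 24 (20.1 per Mb), the kinase gene sgg 258 bp upstream (77.0 ± 12.7, 3 lists). Gap and pair-rule genes came to 1 of 20 (26.8 per Mb), bcd 202 bp upstream. Hox genes and their cofactors came to 0 of 12. The 4 lists with 1 such gene, those of Wnt and Hedgehog, gap and pair-rule, heat shock and germline genes, were nearest to the share of all genes, and in lists this short a single gene moves the share visibly.

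**Figure D4:**
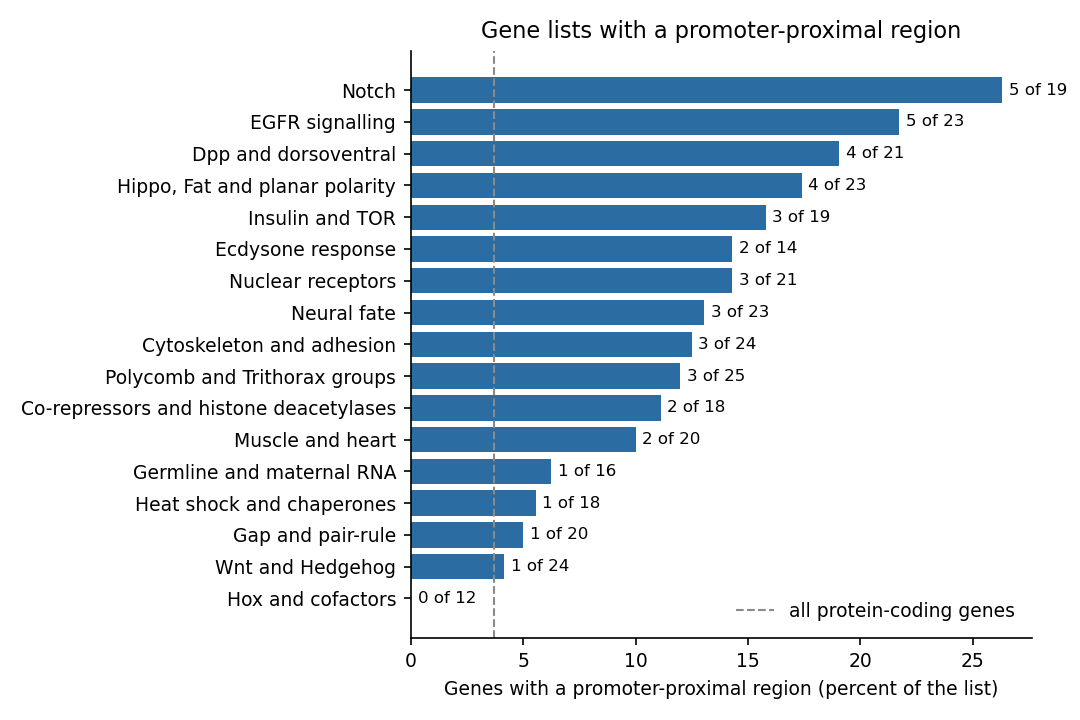
Percent of each of 17 gene lists with a promoter-proximal region (x axis, in percent; counts at the bars), with 3.70% of all protein-coding genes as a dashed line. The Notch list stands highest with 5 of 19 genes and the Hox list has 0 of 12.

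The DNA of the regions was richer in A and T than their surroundings. Windows of 201 bp around the positions had 38.1% G and C, against 42.6% in windows of the same length centred 600 bp to either side, and 41.5% around all start sites. The other classes were alike, with 39.7% at single promoters, 36.8% at divergent promoters and 37.8% in distal regions. Over all genes the value was 39.7% at the median upstream distance and 45.9% at the median downstream distance. Upstream regions had 37.4% and downstream regions 39.6%. Some side windows reach into the transcribed part of the gene, and GC content moves with every motif share below; its part in them was not tested. Motifs were searched on both strands. The TATA box (TATAAA) was in 32.7% of the regions against 20.2% of side windows and 29.2% of windows around all start sites. Single promoters had it in 31.6%, divergent promoters in 36.3% and distal regions in 29.7%. Over all genes it was in 28.5% at the median upstream distance and in 16.9% at the median downstream distance. In the lists of the 4 replicates the TATA share was 32.3%, 33.3%, 32.4% and 32.7% of the regions present (mean 32.7% ± 0.431, SD, n = 4).

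Elements of housekeeping promoters were rarer than at promoters, and the rule leaves out DNA within 200 bp of a start site. The DREF site (TATCGATA) was in 1.07% of the regions and the M1BP site (GGTCACAC) in 0.537%, while single promoters had 7.03% and 3.51%, divergent promoters 12.2% and 5.57%, and all start sites 7.83% and 6.74%. The short BEAF-32 site (CGATA, which lies within the DREF site) was in 23.8% against 43.1% of single and 48.3% of divergent promoters. The CAGCTG E-box was in 6.98% against 14.5% and 19.4%. For these elements the regions resembled the distal ones (0.198% DREF, 0.198% M1BP, 21.6% CGATA and 6.54% CAGCTG).

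The GAGA motif (GAGAG), the site of Trl, was in 32.6% of the regions, in 30.5% of side windows, in 23.5% of single promoters, in 15.1% of divergent promoters, in 26.3% of distal regions and in 22.5% of windows around all start sites. It was in 34.4% of upstream regions against 29.5% of their side windows. In downstream regions it was in 28.0% against 32.9%, opposite to the pooled sign. With both sides pooled, GAGAG was least frequent at the centre of the regions. In windows of 50 bp to each side its share was below that of side windows (a difference of -4.20 percentage points). Of 1188 matches within 250 bp, 108 lay within 49 bp of the position and 312 lay 100 to 149 bp away. The central band is 1 of 5 bands of that width and held 9.09% of the matches, and around the summits of each list 9.53%, 12.8%, 10.1% and 9.47% (mean 10.5% ± 1.57, SD, n = 4). The CA repeat (CACACA) behaved alike, with 8.62% of its 661 matches in the central band, and was in 15.3% of upstream and 26.1% of downstream regions. TATA boxes (23.8%) and Caudal sites (TTTATG, 22.4%) had no such dip. The dip of GAGAG was also found in distal regions (10.1%) and single promoters (11.8%), and less in divergent promoters (19.0% of 232 matches). How repeats affected the placing of summits was not tested.

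**Figure D5:**
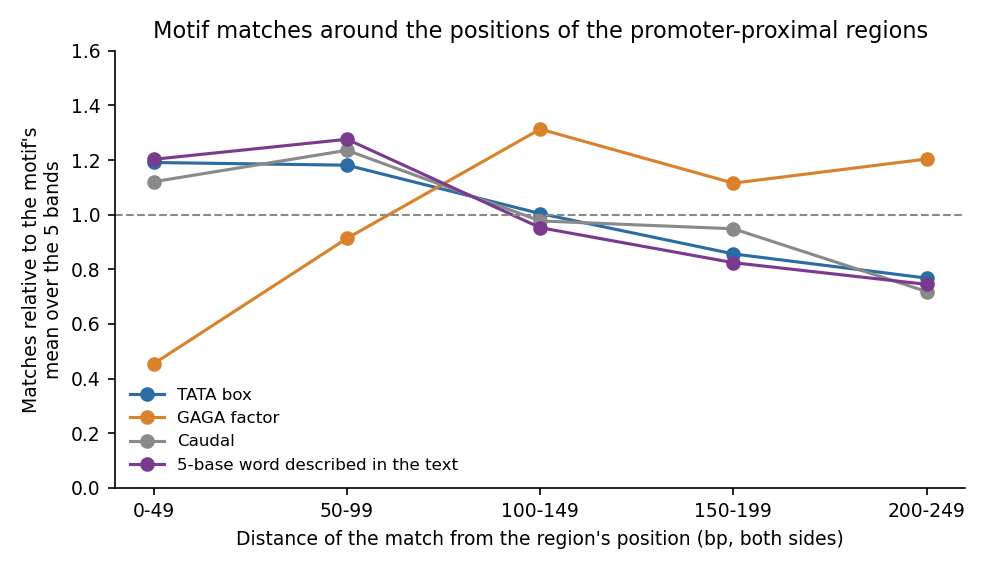
Matches to the TATA box, the GAGA motif, the Caudal motif and the word CACTG by distance from the position of the region (x axis, 5 bands of 50 bp on both sides), relative to the mean of the motif over the bands (y axis, ratio, dashed at 1). GAGAG falls to its lowest value in the central band (108 of 1188 matches), where the other 3 lie above their mean.

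Of the other motifs, the initiator TCAGT (36.1% against 29.5% of side windows) and Caudal (24.9%, with a ratio of 1.24 to side windows) were more frequent in the regions than beside them. Around all start sites the initiator was in 42.9% and in distal regions in 39.2%, both above the regions. The homeodomain core TAATTA (10.7% against 11.6%), the Zelda site CAGGTA (3.94% against 5.10%), the Snail site CAGGTG (6.80% against 6.71%), the Twist site CATATG (6.80% against 5.81%), the Stat92E site TTCNNNGAA (5.72% against 5.55%) and AAAAAAA (20.8% against 21.3%) differed by little. The Tailless type site AAGTCA was in 8.23% against 7.69%, in 9.80% of upstream and 4.35% of downstream regions. All genes had it in 9.75% of windows at the median upstream distance and in 8.90% at the median downstream distance, and distal regions in 10.7%. The Brinker site GGCGCC, though rich in G and C, was in 6.03% of upstream regions, 3.89% of their side windows and 1.24% of downstream regions (24 and 2 regions). Lower in the regions were the Ets site CCGGAA (3.76% against 5.90%), the Pleiohomeotic core GCCAT (27.9% against 30.5%), the Scalloped site CATTCC (6.44% against 8.05%) and the Suppressor of Hairless site GTGGGAA (1.79% against 3.04%). The Grainy head site ACCGGTT was in 0.894% of both. In all, 10 of the 22 motifs were more frequent in the regions than beside them. With both sides pooled, the sign of that difference held under all 8 alternatives for 9 of the 22. These were the TATA box, the initiator and the Caudal, Twist and Brinker sites (higher in the regions). The M1BP, Ets and Suppressor of Hairless sites and the CA repeat were the lower ones. M1BP matches were in 3 regions only. In downstream regions alone the CA repeat was higher (26.1% against 22.4% of their side windows) and the Brinker site lower (1.24% against 4.04%), opposite to the pooled sign.

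Of 2080 6-base words 1769 were found in at least 5% of windows, and among these the words with the largest ratio of regions to side windows were AGTGTA (15.9% against 5.10%), ACAGGG (8.41% against 2.77%), ACTGTA (19.0% against 7.16%), GTGCAC (10.6% against 4.03%) and ACAGTG (25.9% against 10.2%). The lowest ratios were those of GCCGGA (1.61% against 6.17%), CTCGGC (1.97% against 7.42%) and CCGCCG (2.50% against 9.39%), all rich in G and C. ACAGTG holds the 5 bases CAGTG, the reverse complement of CACTG, a word singled out after these values were seen. CACTG or CAGTG was in 289 of the 559 regions (51.7%) and in 32.6% of side windows, in 50.8% of upstream and 54.0% of downstream regions, and in 37.4% of windows around all start sites. The share was 53.1%, 51.4%, 52.8% and 53.2% in the regions of the 4 lists (mean 52.6% ± 0.825, SD, n = 4). The word was also frequent in the other classes, with 52.6% at single promoters, 42.8% at divergent promoters and 63.1% in distal regions. CAGTG overlaps the initiator TCAGT by 4 bases.

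The word was more frequent in the stronger regions. In regions above the median of their list 55.1% ± 1.21 held it and in the others 49.1% ± 1.19 (SD, n = 4), a difference of 5.98 ± 1.17 points, positive in 4 of 4 replicates. GAGAG moved the same way (34.9% ± 1.41 above, 30.5% ± 1.89 below, 4 of 4), and so did CATTCC (7.92% ± 0.594 and 5.33% ± 0.934, 4 of 4). The TATA box moved the other way (30.8% ± 1.46 and 35.3% ± 1.66, lower above the median in 4 of 4), as did AAGTCA (7.09% ± 0.449 and 10.1% ± 0.569, 4 of 4). Of all 23 motifs 8 kept 1 sign in 4 of 4 replicates, the others being CAGGTA (a difference of 2.17 ± 1.32 points), CATATG (1.27 ± 1.06) and TAATTA (-3.70 ± 3.27). These were picked after their values were seen, the replicates share most of their regions, and no test was made.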

How the data were processed

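The data were ChIP-seq peak lists of 4 biological replicates. Per the README texts deposited with the samples, a thresholded and a longer ranked list on dm6 were made for each replicate by irreproducible discovery rate (IDR) analysis. For the aligner and the caller, names and versions were not given in the sources used here. The signal of a peak is the authors' deposited value and was used only to rank peaks within a list, as were the deposited -log10 q values in an alternative. The deposited IDR score was at least 830 in every thresholded list. The other deposited value used is the distance from peak start to summit. No read counts were used, so depth is unknown and no interval that needs it is given.

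Summits were joined within 200 bp, and 19630 start sites of 13968 protein-coding genes were taken from the annotation of Ensembl release 115. Coordinates are 1-based. Shares and densities were set beside counts of all bases that meet the same rule, base by base, with no sampling. Signal was compared over replicates by an exact 2-sided sign-flip permutation test, with Benjamini-Hochberg adjustment over 3 comparisons and a threshold of 0.05. p-values measure only the spread between these 4 samples. Python 3.11.15, numpy 2.4.6, pandas 2.3.3 and matplotlib 3.10.9 were used, and the steps were tested on simulated data.

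The regions, the 17 gene lists and the 22 motifs were chosen with earlier results of these data known. The text names the 12 upstream and 8 downstream regions in all 4 lists with the highest mean percentile, up to 3 genes per list by the same measure (further list genes are named without that rule), the regions nearest each bound, up to 5 genes with the most regions, every motif, and the 5 highest and 3 lowest 6-base words among those in at least 5% of windows. Of 346 list symbols, 5 matched through an older name and 4 (Star, Dl, Tor, nos) were not matched. Alternatives covered the joining distance, the lists required, each replicate left out, stricter lists, 2 of the authors' series-level lists, the start sites, the divergent pairs, the inner bound, the peak value and the motif windows. The alternatives for the word CACTG were chosen after seeing the data.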

Additional observations from a re-analysis of the deposited data

Results flagged for a closer look

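Of 120 sets of 4 replicate values examined, 5 had 1 replicate far from the other 3, where chance flags about 1 set in 20. The median signal percentile of single promoters was 71.5 in replicate 2 and 56.2 to 57.8 in the others, and it enters the comparison with the promoter-proximal regions. The density ratio 401 to 500 bp upstream was 2.53 in replicate 1 and 2.27 to 2.31 in the others. Upstream peaks in coding exons made up 0.340% of 294 peaks in replicate 1 and 0% elsewhere, and downstream peaks between genes 0.461% in replicate 2 and 0% elsewhere. Where the other 3 lists hold 0%, any share above that is flagged, however few the peaks. The region 202 bp upstream of bcd, the gene of the anterior morphogen Bicoid, had a percentile of 22.3 in replicate 3 and 72.1 to 79.8 in the others.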

How the results depend on the processing

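No paired analysis was possible because the series holds 1 group, so replicate numbers pair no samples across groups; signal differences between classes of regions were taken within each replicate. Of 130 alternatives to the main results, 107 kept direction and side of the threshold or moved by less than the replicate spread or 1.5 times for counts, 20 moved and 3 reversed. The number of regions, 559, was 259 when all 4 lists were required, 288 with the stronger 50% of each list, and 889 in the authors' largest series-level list, and the number of genes, 517, was 242 and 270 under the first 2 of these. Leaving out each replicate gave 420 to 513 regions, the lowest without replicate 2, and 391 to 475 genes. The upstream share was 57.2% with 1 outermost start site per gene, 69.7% with start sites of every gene type, 69.9% in the authors' largest list, 74.0% with divergent pairs within 1000 bp set aside, and 63.7% beyond 300 bp, and 70.5% to 71.4% without each replicate. The corresponding share of eligible bases stayed between 41.0% and 45.7%. The density ratio, 1.47, was 1.54 for all 4 lists, 1.39 in the authors' largest list, 1.40 with outermost start sites, 1.38 with every gene type, 1.30 beyond 300 bp, and 1.46 to 1.51 without each replicate. The share in every list was 66.6% of regions in 3 or more lists, and 60.0% to 62.5% when each replicate was left out, where it means all 3 lists left.

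The difference between upstream and downstream signal reversed to 0.68 with 3 or more lists, to 1.06 with the stronger 50% of each list and to 1.72 without replicate 1 (range -2.16 to 1.72 without each replicate). Against distal regions it stayed positive under all 15 alternatives and against single promoters negative, from 5.37 to 6.06 and from -3.01 to -1.60 without each replicate, and over all alternatives from 2.25 (stronger 50% of each list) to 7.43 (every gene type) and from -7.67 (-log10 q) to -0.24 (outermost start sites). Between 8 and 11 motifs were more frequent in the regions. The excess of CACTG over side windows, 19.1 points, stayed positive under all 8 alternatives. The word was picked from these same regions and side windows, so its stable sign is no independent support. Of the 22 motifs 9 kept their sign under all 8 alternatives. Differences larger than the replicate spread that changed sign were GAGAG within 50 bp (-4.20 points), CGATA against windows at 1000 bp (1.97), CAGGTA within 150 bp (0.45), GCCAT within 50 bp (0.18) and CATTCC in all 4 lists (1.16). Smaller differences also changed sign, to -0.77 for AAGTCA, -1.35 for TTCNNNGAA and -0.19 for TATCGATA in all 4 lists, to 5.10 for AAAAAAA and -1.43 for CAGGTG against windows at 1000 bp, and to 1.16 for TAATTA within 150 bp. CAGCTG came to 0 within 50 bp, and ACCGGTT, 0 at first, to -0.45. The cause was not tested. Depth was not given, so a region missing from a list cannot be called unbound there.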
